A study of Sus scrofa with 22 samples.

Results

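Chylomicron assembly was followed through 9 genes in RNA sequencing libraries of pig jejunal mucosa, the inner layer of the gut segment in which most dietary fat is taken up. The genes were APOB, MTTP, PLA2G12B, TM6SF2, SAR1B, APOA1, APOA4, APOC3 and APOC2. They were chosen by symbol, each has an entry in the count table of all 22 libraries, and they make up 9 of the 24358 genes counted per library. All 9 passed the filter on low counts, as did 13626 genes in all. Levels are unique exon reads in counts per M reads (CPM), scaled between libraries by the TMM method. The files used give no exon lengths, so levels were compared between libraries and not between genes.

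The animals were Ossabaw pigs, a breed prone to obesity and metabolic disease, kept on isocaloric diets for 6 months. In both diets fat supplied 38% of energy, carbohydrate 47% and protein 15%. The HHD group (n = 7) ate the heart healthy pattern, with vegetable oils, whole grains, fruit, vegetables and fibre, and took fish oil capsules of 1000 mg on 3 occasions a week, without a drug. The HHD_S group (n = 8) had the same diet and capsules plus atorvastatin, an inhibitor of cholesterol synthesis, at 20 mg per day for 3 months and 40 mg per day thereafter. The WD_S group (n = 7) ate the Western pattern, with butter fat, added cholesterol, sugar and white flour, without capsules, and received the same doses of atorvastatin, as the diet label of each sample states; the series text uses the abbreviation of these samples for the Western pattern without the drug. Boars and gilts were randomized, and neither the sex nor the age of each pig is given. Each library is a different pig, numbered here within its group. The Western pattern without drug was not analysed here.

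After a meal, absorptive enterocytes rebuild triglyceride from absorbed fatty acids and pack it around APOB, the large structural protein of the chylomicron. MTTP, the microsomal triglyceride transfer protein, loads lipid onto APOB inside the endoplasmic reticulum, and the particle leaves that compartment in carriers formed by the COPII coat, whose assembly starts with a GTPase such as SAR1B. Smaller apolipoproteins (APOA1, APOA4, APOC2 and APOC3) sit on the particle's surface and act on its lipid exchange and breakdown in blood.

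Total counts were between 15.3 and 31.6 M per library. Together the 9 genes took between 0.983% and 4.23% of a library's counts. HHD_S 3 (0.983%), HHD 7 (1.18%) and HHD_S 8 (1.41%) stood below the others, whose lowest share was 2.06%. HHD_S 3 ranked among the 3 lowest libraries for 9 of 9 genes, HHD 7 for 6 and HHD_S 8 for 4. Enterocyte markers were abundant throughout, the summed level of 14 measured markers lying between 19910 and 49083 CPM. Hepatocyte markers were low. TTR was at 0 in 13 of 22 libraries, AHSG in 17 and CYP7A1 in 10, and ALB had a median of 0.184 CPM and a highest value of 24.4 CPM. None of these passed the filter on low counts. F2, SERPINA1 and TAT passed it and were at 0 in no library, with medians of 0.640, 4.32 and 0.454 CPM. SERPINA1 reached 9.77 CPM.

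No difference between the diets, or with and without atorvastatin, was detectable at this number of pigs in any of the 9 genes. APOB, MTTP, SAR1B, PLA2G12B, TM6SF2 and the 4 surface apolipoproteins overlapped between groups in every comparison. Levels differed between single libraries: APOA4 and APOC3 ranged 47.5-fold and 38.8-fold between their lowest and highest libraries. The genes varied in 2 partly separate patterns, one shared by APOB, APOA1, APOC3 and TM6SF2 and the other by MTTP and APOA4. The patterns were not sharply divided. APOA4 correlated at 0.83 with MTTP, but also at 0.69 with APOC3, 0.68 with APOA1, 0.68 with TM6SF2 and 0.57 with APOB (Pearson r, group means removed). As each library is a different pig, the pig, the piece of mucosa and the library preparation cannot be told apart.

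APOB (chromosome 3, 117250096 to 117316200, Sscrofa11.1, RefSeq gene span) had a lowest, median and highest level of 3671, 5897 and 13432 CPM in HHD. In HHD_S these values were 3123, 8000 and 12835 CPM. In WD_S they were 3886, 10633 and 12954 CPM. The medians stepped up over the 3 groups, but the ranges were nearly the same, and the lowest and highest library of each group lay close to those of the others. The log2 difference was 0.13 for WD_S against HHD_S (SE 0.335, 95% interval -0.57 to 0.82) and 0.07 for HHD_S against HHD (SE 0.327, interval -0.60 to 0.75).

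MTTP (chromosome 8, 120820660 to 120871468) had lowest, median and highest levels of 598, 967 and 1985 CPM in HHD. The same values were 444, 893 and 2200 CPM in HHD_S, and 731, 896 and 1139 CPM in WD_S. The WD_S libraries lay inside the range of both other groups, and the high values came from HHD_S 7 (2200 CPM), HHD 4 (1985 CPM) and HHD 1 (1626 CPM). The log2 difference of MTTP was -0.13 for WD_S against HHD_S (SE 0.293, 95% interval -0.74 to 0.47) and -0.16 for HHD_S against HHD (SE 0.284, interval -0.75 to 0.43).

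PLA2G12B and TM6SF2 help to enlarge the lipid load of APOB particles, PLA2G12B as a phospholipase relative without catalytic activity and TM6SF2 as a membrane protein of the secretory pathway. PLA2G12B (chromosome 14, 75754525 to 75778933) stood at 60.2, 75.3 and 129 CPM (lowest, median, highest) in HHD, 60.4, 91.2 and 113 CPM in HHD_S, and 63.3, 102 and 120 CPM in WD_S. TM6SF2 (chromosome 2, 58617210 to 58627785) stood at 104, 133 and 184 CPM in HHD, 96.0, 155 and 222 CPM in HHD_S, and 134, 163 and 232 CPM in WD_S. Both had their highest median in WD_S and their lowest in HHD, with overlapping groups. For WD_S against HHD, in which diet and drug differ together, the log2 difference was 0.22 for PLA2G12B (SE 0.189, 95% interval -0.17 to 0.61). It was 0.37 without HHD 6 and 0.12 without WD_S 3 or without HHD 4. The corresponding value for TM6SF2 was 0.21 (SE 0.176, interval -0.15 to 0.58). With limma and sample quality weights, HHD_S against HHD gave 0.32 for PLA2G12B (limma adjusted p = 0.527) and 0.33 for TM6SF2 (limma adjusted p = 0.527).

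SAR1B (chromosome 2, 136848843 to 136874248), the GTPase that is mutated in chylomicron retention disease, had the smallest estimated differences of the 9 genes. Its lowest, median and highest levels were 93.5, 138 and 190 CPM in HHD, 86.9, 137 and 207 CPM in HHD_S, and 104, 131 and 195 CPM in WD_S. The group medians of SAR1B lay within the spread of every group. Its log2 difference was -0.02 for WD_S against HHD_S (SE 0.178, 95% interval -0.39 to 0.35) and -0.0071 for HHD_S against HHD (SE 0.174, interval -0.37 to 0.35). Its close relative SAR1A stood between 65.4 and 114 CPM. Reads that map to both genes are absent from unique counts, and how many were lost is not given here.

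APOA1 (chromosome 9, 44216481 to 44218360), the main protein of high density lipoprotein and a component of new chylomicrons, had lowest, median and highest levels of 5714, 13718 and 23296 CPM in HHD. In HHD_S they were 4779, 18931 and 26036 CPM, and in WD_S 14202, 20853 and 29024 CPM. Every WD_S library lay above 7 libraries of the other groups, the lowest being HHD_S 3 (4779 CPM), HHD 7 (5714 CPM), HHD_S 8 (7660 CPM) and HHD_S 7 (9222 CPM), while the upper ends overlapped. The mean of APOA1 was 21235 ± 5863 CPM (SD, n = 7) under WD_S. Under HHD_S it was 16382 ± 8055 CPM (SD, n = 8). The log2 difference between them was 0.38 (SE 0.337, 95% interval -0.32 to 1.08), and it was 0.43 for WD_S against HHD (SE 0.351, interval -0.30 to 1.15).

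APOC3 (chromosome 9, 44211171 to 44213538), an inhibitor of lipoprotein lipase and of remnant uptake, had lowest, median and highest levels of 290, 2160 and 2624 CPM in HHD. In HHD_S they were 95, 1827 and 3091 CPM, and in WD_S 1300, 1775 and 3686 CPM. The 4 lowest libraries in APOA1 were also the 4 lowest here, namely HHD_S 3 (95 CPM), HHD_S 8 (227 CPM), HHD 7 (290 CPM) and HHD_S 7 (747 CPM). The log2 difference was 0.47 for WD_S against HHD_S (SE 0.543, 95% interval -0.66 to 1.60) and -0.19 for HHD_S against HHD (SE 0.533, interval -1.30 to 0.92).

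APOA4 (chromosome 9, 44201587 to 44204072), a chylomicron protein secreted in proportion to fat absorption, had lowest, median and highest levels of 244, 494 and 2860 CPM in HHD. In HHD_S they were 60.2, 554 and 1377 CPM, and in WD_S 285, 610 and 865 CPM. The HHD libraries fell apart into HHD 4 (2860 CPM), HHD 1 (2527 CPM) and HHD 2 (1300 CPM) above and 4 libraries between 244 and 494 CPM below, so that the mean of HHD (1163 ± 1107 CPM, SD, n = 7) was far from its median. Against HHD, APOA4 had the largest estimated differences of the 9 genes, at -0.96 on the log2 scale for WD_S against HHD (SE 0.598, 95% interval -2.20 to 0.29). For HHD_S against HHD it was -0.88 (SE 0.577, interval -2.08 to 0.32). Without HHD 4 these values shrank to -0.20 and -0.22. The difference of WD_S from HHD was -0.37 within library pool 3 (a number in the deposited files' names, whose meaning is not given in the sources used here) and -1.78 within pool 4 (edgeR adjusted p = 0.9998), where HHD has 2 libraries. WD_S and HHD_S, both with atorvastatin, differed by -0.08 (SE 0.580, interval -1.29 to 1.13).

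APOC2 (chromosome 6, 51404219 to 51406302), the activator of lipoprotein lipase, was scarce in the jejunum, with between 0 and 74 reads per library and a median of 16.5. Its lowest, median and highest levels were 0, 0.899 and 3.23 CPM in HHD, 0.150, 0.741 and 1.57 CPM in HHD_S, and 0.343, 0.538 and 2.77 CPM in WD_S. HHD 7 had no read, which at its depth allows up to 0.148 CPM (3 counts, counting error only), and most libraries of every group lay under 1 CPM. The log2 difference was -0.70 for HHD_S against HHD (SE 0.576, 95% interval -1.90 to 0.49) and 0.35 for WD_S against HHD_S (SE 0.596, interval -0.89 to 1.59). The second of these turned to -0.33 without WD_S 3.

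**Figure D1:**
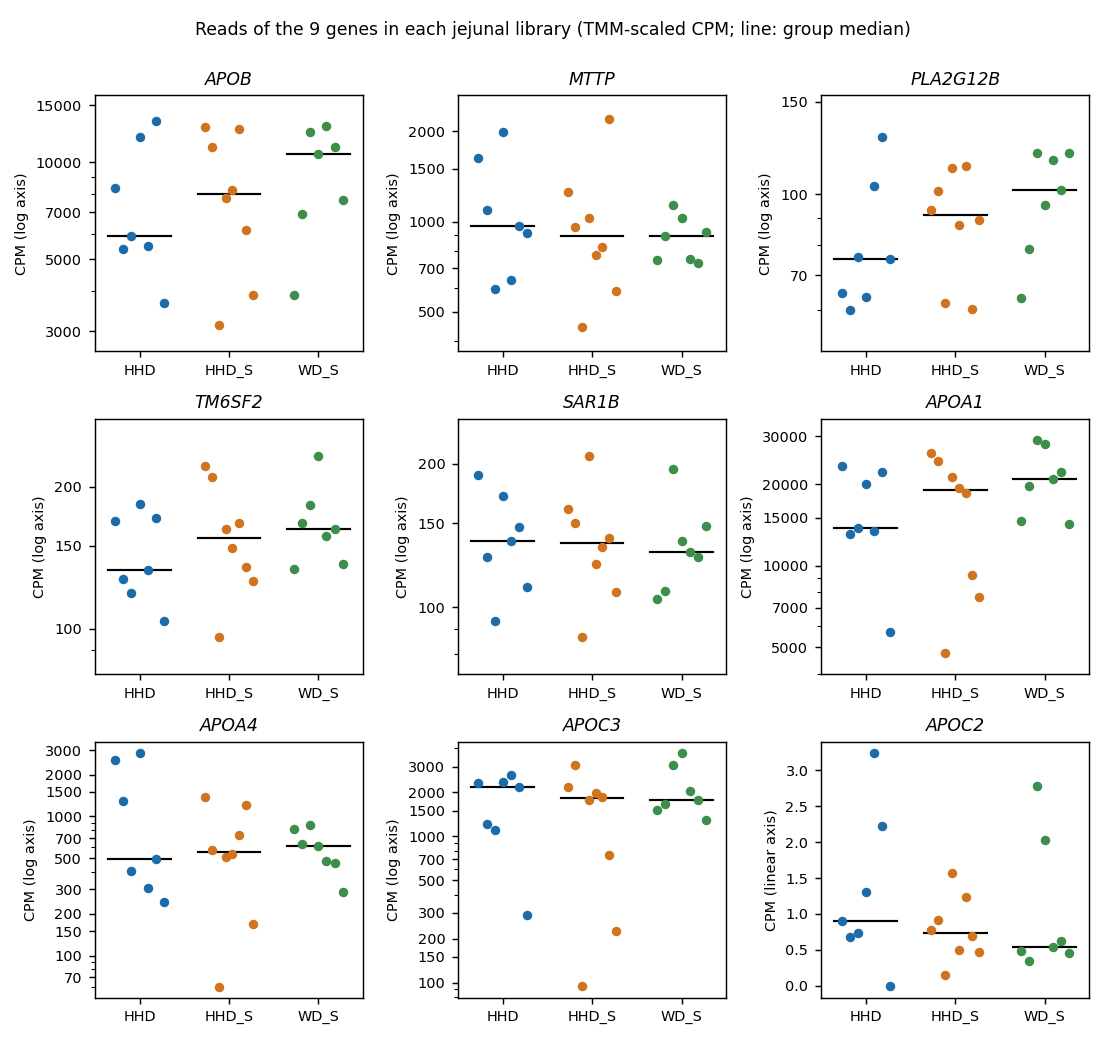
Level of each gene in every library (TMM-scaled CPM, log axis except the linear axis of APOC2), in the groups HHD (n = 7), HHD_S (n = 8) and WD_S (n = 7); points are libraries in the order of their number and lines are group medians. The groups overlap for all 9 genes, and the low points of APOA1 and APOC3 in HHD and HHD_S are HHD 7, HHD_S 3, HHD_S 8 and HHD_S 7.

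Of the 9 genes, 0 passed an adjusted p of 0.05 by edgeR between WD_S and HHD_S, where 0 of 13626 genes passed (0%). The count was also 0 of 9 between HHD_S and HHD (0% of all genes) and between WD_S and HHD (0.00734% of all genes, the single gene being ABCG1, a sterol exporter). The adjusted p of all 9 genes was 0.999 in the first of these comparisons, 0.999 in the next and 0.9997 in the last. A test of any difference over the 3 groups called 0 of 9 genes against 0.00734% of all genes. At an unadjusted p under 0.05 the 9 genes still counted 0 in each comparison by edgeR, while limma counted 2 of them, PLA2G12B and TM6SF2, for HHD_S against HHD, a comparison in which limma counted 9.35% of all genes. Limma counted 0 of the 9 for WD_S against HHD_S (6.6% of all genes) and 0 for WD_S against HHD (9.47% of all genes). By edgeR the shares of all genes at that level were 2.92% for WD_S against HHD_S, 1.81% for HHD_S against HHD, 3.41% for WD_S against HHD and 2.13% over the 3 groups. DESeq2 and limma with quality weights also called 0 of 9 in each of the 3 comparisons at an adjusted p of 0.05, with 4, 1 and 2 genes of the whole table called by DESeq2 and 1, 0 and 1 by limma. The median log2 difference of the 9 genes was 0.10 for WD_S against HHD_S (6 of 9 positive, median over all genes -0.01), -0.0071 for HHD_S against HHD (4 of 9 positive, all genes 0.0088) and 0.20 for WD_S against HHD (5 of 9 positive, all genes -0.0041). These comparisons share groups and are not independent of each other.

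**Figure D2:**
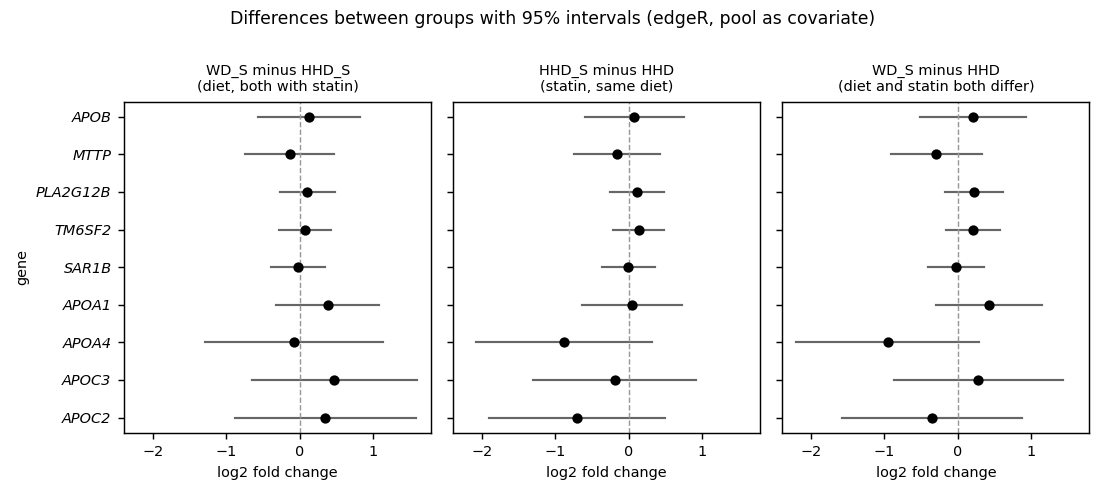
Difference between groups on the log2 scale (x axis) for each gene (y axis) in 3 comparisons; points are edgeR estimates and bars their 95% intervals. All 27 intervals include 0, and those of APOA4, APOC3 and APOC2 are the widest.

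The spread between libraries on the same treatment set these intervals. The biological coefficient of variation, the spread between libraries of a group after counting noise is removed, was 73.3% for APOA4, 68.5% for APOC3, 75.5% for APOC2, 43.0% for APOA1, 42.7% for APOB and 38.0% for MTTP. It was 24.7% for PLA2G12B, 24.4% for SAR1B and 23.4% for TM6SF2. The median of all tested genes was 20.7%, and that of the 5509 genes whose mean log2 CPM reached 5 was 17.9%. Among the latter genes APOA4 stood at percentile 99.4, APOC3 at 99.3, APOA1 at 96.5, APOB at 96.4 and MTTP at 95.1. From lowest to highest library the level of APOA1 differed 6.07-fold, MTTP 4.95-fold and APOB 4.30-fold, and that of TM6SF2, SAR1B and PLA2G12B 2.42-fold, 2.39-fold and 2.14-fold.

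For APOB, APOA1 and TM6SF2 much of that spread was shared with markers of the absorptive cell. An enterocyte score, the mean over 14 markers such as VIL1, ANPEP, SI and SLC5A1 of log2 CPM centred per gene, was lowest in HHD_S 3 (-0.70), HHD_S 8 (-0.62), HHD 5 (-0.61) and HHD 7 (-0.51). Its median was -0.21 in HHD, 0.08 in HHD_S and 0.13 in WD_S, with overlapping ranges. Of the 14 markers, 12 were positive for WD_S against HHD_S, 10 for HHD_S against HHD and 13 for WD_S against HHD, and 0 passed an adjusted p of 0.05 by edgeR in each (1, SI, at an unadjusted p under 0.05 in the last). In bulk tissue, fewer enterocytes and less RNA per enterocyte cannot be told apart.

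Correlations with that score were computed over 22 libraries after removal of group means, as part of 27 relations between the 9 genes and 3 list scores, with p from 100000 permutations adjusted over the 27. APOB followed the enterocyte score most closely (Pearson r = 0.94, Spearman rho = 0.92, permutation p = 1e-05 for each, the smallest that can be given, adjusted p = 3.9e-05 for r), and r was 0.91 without the 2 libraries farthest from the median, HHD_S 3 and HHD_S 8. It was 0.97 in pool 3 and 0.92 in pool 4. APOA1 gave r = 0.89 (rho 0.90, adjusted permutation p = 3.9e-05, 0.85 without those 2 libraries) and TM6SF2 also r = 0.89 (rho 0.92, adjusted permutation p = 3.9e-05, 0.87 without them). APOC3 gave 0.78 (rho 0.75, adjusted permutation p = 0.00021), SAR1B 0.63 (rho 0.63, 0.0076), APOA4 0.62 (rho 0.57, 0.0124) and APOC2 0.50 (rho 0.56, 0.0298). For APOC2 the r was 0.69 in pool 3 and 0.05 in pool 4, so the relation did not hold within both pools. For MTTP r was 0.49 (adjusted permutation p = 0.0534), rho was 0.57 (adjusted permutation p = 0.0221), and r fell to 0.31 without HHD_S 3 and HHD_S 8. PLA2G12B had r = 0.44 (rho 0.38, adjusted permutation p = 0.0619), with 0.76 in pool 3 and -0.39 in pool 4.

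When the score entered the edgeR model as a covariate, the coefficient of variation of APOB fell from 42.7% to 16.7%, that of APOA1 from 43.0% to 23.3% and that of TM6SF2 from 23.4% to 13.7%. The median over all genes moved from 20.7% to 19.3%. MTTP (38.0% to 35.5%), APOA4 (73.3% to 63.7%) and APOC3 (68.5% to 53.3%) kept most of theirs. So did APOC2 (75.5% to 71.7%), PLA2G12B (24.7% to 22.5%) and SAR1B (24.4% to 20.3%). With this term, APOB differed by -0.10 between WD_S and HHD_S (SE 0.123, 95% interval -0.36 to 0.15) and by -0.03 between HHD_S and HHD (SE 0.117, interval -0.27 to 0.22). TM6SF2 differed by -0.04 between WD_S and HHD_S (SE 0.0907, interval -0.23 to 0.15). APOA4 remained the gene with the largest difference, at -1.02 for WD_S against HHD (SE 0.516, interval -2.10 to 0.06, edgeR adjusted p = 0.9997). Under this model 0 of the 9 genes passed an adjusted p of 0.05 or an unadjusted p of 0.05. The share of all genes at these levels under this model is not given here.

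MTTP and APOA4 were most closely related to genes of transport out of the endoplasmic reticulum and of triglyceride synthesis. The list of the secretory route held 22 genes for the COPII coat, its regulators, cargo receptors and helpers of particle formation, of which 17 were measured. MTTP tracked the mean of those 17 genes with r = 0.96 (rho 0.95, permutation p = 1e-05 for each, the smallest that can be given, adjusted p = 3.9e-05 for r). That r was 0.96 without HHD_S 7 and HHD 4, the 2 libraries farthest from the median, and 0.97 in each pool. APOA4 had r = 0.90 with the same score (rho 0.86, adjusted permutation p = 3.9e-05, 0.88 without those 2 libraries). The other values were 0.67 for SAR1B, 0.63 for TM6SF2, 0.54 for APOA1, 0.54 for APOC3, 0.51 for APOB, 0.26 for APOC2 (adjusted permutation p = 0.336) and -0.22 for PLA2G12B (adjusted permutation p = 0.377).

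Within this list, 11 of 17 genes had r above 0.5 with MTTP, against 8.07% of all tested genes. Highest were SEC24D (0.93) and SEC24A (0.91), cargo-binding subunits of the COPII coat, and SURF4 (0.89), a cargo receptor for lipoproteins. CIDEB (0.88), a lipid droplet and lipoprotein lipidation protein, came next. SEC13 (0.86), a coat subunit, and P4HB (0.83), the disulfide isomerase that is the partner subunit of MTTP in the transfer complex, were also high. SEC24B was lowest (-0.09). These values are descriptions over the same 22 libraries, without a test for each gene. HHD 4, HHD 1 and HHD_S 7 had the 3 highest secretory route scores (0.44, 0.41 and 0.35) and the 3 highest MTTP levels. Their enterocyte scores were 0.31, 0.16 and -0.35.

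**Figure D3:**
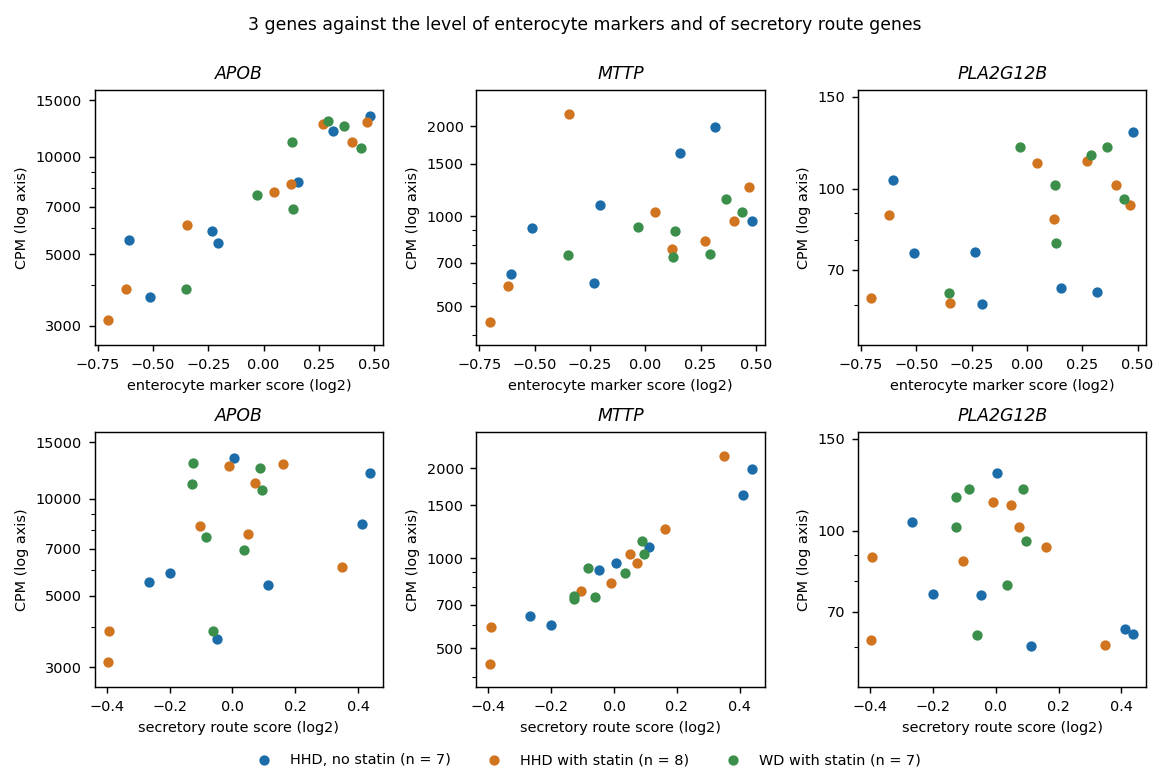
Level of APOB, MTTP and PLA2G12B (y axis, CPM on a log axis) in each library against the enterocyte marker score (upper row) and the secretory route score (lower row), both mean log2 deviations; colours are the 3 groups. APOB follows the enterocyte score (r = 0.94), MTTP follows the secretory route score (r = 0.96), and PLA2G12B is low in the 3 libraries with the highest secretory route score; r is with group means removed.

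Genes of triglyceride resynthesis and lipid droplets, the source of the particle's core, gave another score over 18 measured genes. APOA4 had r = 0.93 with it (rho 0.89, adjusted permutation p = 3.9e-05, 0.90 without HHD_S 3 and HHD_S 8) and MTTP r = 0.88 (rho 0.91, adjusted permutation p = 3.9e-05, 0.84 without them). Among single genes of that list, the acyl-CoA synthetase ACSL3 stood highest for MTTP (0.90) and APOA4 (0.88). LPIN1 was lowest for both (-0.42 and -0.38), and PLIN2 had -0.14 and -0.20. With MTTP, 10 of 18 genes had r above 0.5, against 8.07% of all tested genes. With APOA4 it was also 10 of 18, against 8.28% of all tested genes. TM6SF2 had r = 0.80 with the score, APOC3 0.76, APOA1 0.73, SAR1B 0.73 and APOB 0.62. PLA2G12B had r = -0.06 (rho -0.12, adjusted permutation p = 0.819).

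Between the 9 genes themselves, 34 of 36 pairs had a positive r, with a median of 0.64, and 25 of 36 had an adjusted permutation p under 0.05. Over all tested genes the median r ran from -0.049 with APOB to -0.0072 with PLA2G12B. The share of all tested genes with r above 0.5 ran from 6.31% for APOC2 to 12.6% for PLA2G12B. How many pairs of other enterocyte genes would pass the same test is not given here. The closest pair was APOA1 and APOC3 (r = 0.94, rho 0.84, adjusted permutation p = 7.2e-05 for r), at 0.96 in pool 3 and 0.90 in pool 4. APOA1 and TM6SF2 followed (0.91), then APOB and APOA1 (0.87). MTTP and APOA4 had r = 0.83 (rho 0.76, adjusted permutation p = 0.000135), at 0.84 in pool 3 and 0.83 in pool 4.

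Several of these values depended on the 3 libraries with the smallest share of reads from the 9 genes, HHD 7, HHD_S 3 and HHD_S 8. Without them, a choice made after seeing the data, APOA1 and APOC3 had r = 0.84, APOB and APOA1 0.75, and MTTP and APOA4 0.80. In contrast, APOA4 and APOC3 went from 0.69 to 0.06, APOA1 and APOA4 from 0.68 to 0.22, and APOB and APOA4 from 0.57 to 0.15. Leaving out only the 2 libraries farthest from the median gave 0.45 for APOA4 with APOA1, 0.43 with APOC3, 0.55 with APOB and 0.80 with MTTP. Within pool 3 and pool 4, APOA4 had r = 0.66 and 0.80 with APOA1, 0.76 and 0.59 with APOC3, and 0.51 and 0.85 with APOB.

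PLA2G12B stood apart from MTTP and APOA4. Its r was -0.18 with MTTP (adjusted permutation p = 0.472) and -0.18 with APOA4 (adjusted permutation p = 0.472), the only 2 negative values of the 36. Both values varied between subsets. With MTTP r was 0.02 in pool 3 and -0.64 in pool 4, and with APOA4 -0.03 and -0.58. Without the 3 libraries with the smallest share of reads from the 9 genes, r was -0.43 with MTTP and -0.62 with APOA4. That choice was made after seeing the data. Leaving out only the 2 libraries farthest from the median gave -0.20 and -0.50. The differences between subsets were not tested. PLA2G12B was low, between 60.2 and 64.8 CPM, in HHD 1, HHD 2, HHD 4, HHD_S 7 and WD_S 1. Of these, HHD 1, HHD 4 and HHD_S 7 were the highest in MTTP. PLA2G12B was also low in HHD_S 3 (61.9 CPM), the lowest in MTTP. With APOB its r was 0.57 (adjusted permutation p = 0.0141), at 0.77 in pool 3 and -0.18 in pool 4, and the latter pool holds 9 libraries. With APOC2 it was 0.49 (adjusted permutation p = 0.0463), at 0.56 in pool 3 and 0.11 in pool 4. The remaining values were 0.44 with APOA1, 0.42 with APOC3, 0.41 with SAR1B and 0.36 with TM6SF2. Their adjusted permutation p lay between 0.0677 and 0.131.

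**Figure D4:**
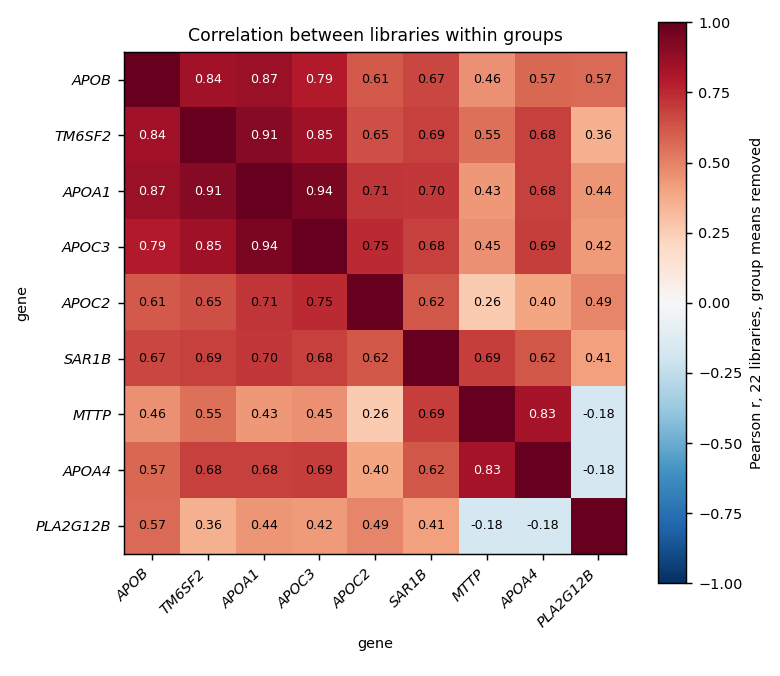
Pearson r between the 9 genes (both axes) over 22 libraries after removal of group means, from -1 (blue) to 1 (red). APOB, TM6SF2, APOA1 and APOC3 form a block of r from 0.79 to 0.94, MTTP and APOA4 pair at 0.83, and PLA2G12B has r of -0.18 with each of the last 2.

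APOA4, APOC3 and APOA1 lie side by side on chromosome 9, within 16.8 kb from the start of APOA4 to the end of APOA1, and their annotated spans do not overlap. The gap between APOA4 and APOC3 is 7098 bases and that between APOC3 and APOA1 is 2942 bases. The nearer pair was the more alike (r = 0.94 against 0.69 for APOA4 with APOC3 and 0.68 for APOA4 with APOA1). APOA5, which begins the cluster and raises lipoprotein lipase activity, is 20706 bases from APOA4 and was near 1 CPM (0.367 to 1.47 CPM), with r = -0.02 to APOA1 and 0.05 to APOA4. SIK3, on the other side of APOA1, had r = 0.34 with APOA1. Beyond it, r with APOA1 and APOA4 was -0.53 and -0.41 for PAFAH1B2 and 0.20 and 0.17 for TAGLN. It was 0.41 and -0.0038 for RNF214, -0.42 and -0.41 for BACE1, and -0.67 and -0.40 for CEP164. BUD13, on the far side of APOA5, had 0.23 and -0.30. On the side of SIK3, SIDT2 (chromosome 9, 44543648 to 44559717) had r = 0.86 with APOA4 and 0.57 with APOA1, and PCSK7 (chromosome 9, 44567573 to 44596549) had 0.60 and 0.28. The r with APOA4 was thus higher for SIDT2 than for APOC3 or APOA1, although SIDT2 lies farther away. The libraries carry no strand, so reads from overlapping transcripts on opposite strands cannot be told apart.

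The genes most like each of the 9 were taken as those with the highest r over the same 22 libraries, among 11090 other genes. For APOB they included CDHR2 (0.94), a brush border cadherin that is also in the enterocyte list, and SLC17A5 (0.94), a lysosomal sialic acid transporter. MTTP was most like SEC24D (0.93), ABHD6 (0.92), a monoacylglycerol lipase, and YIF1A (0.91), a protein of transport between endoplasmic reticulum and Golgi. APOA4 paired with SLC9A3 (0.93), the brush border sodium/proton exchanger, and with CIDEB (0.93), a lipid droplet and lipoprotein lipidation protein in the secretory route list. APOA1 was closest to ASL (0.95), a urea cycle enzyme, MME (0.95), a membrane peptidase, and LAPTM4B (0.94). APOC3 was closest to ENPP7 (0.93), the intestinal alkaline sphingomyelinase, RHOC (0.92) and LAMTOR1 (0.92). TM6SF2 was closest to PRKCD (0.94), TRPM4 (0.94) and the peptide transporter SLC15A1 (0.94). SAR1B was closest to NUS1 (0.95), a subunit of the enzyme for dolichol synthesis, followed by TMBIM4 (0.88) and GNG12 (0.88). PLA2G12B was closest to MAPK9 (0.94), USP38 (0.92) and NAMPT (0.92), none of them in the lists used here. For the scarce APOC2 the highest were NCOA4 (0.87), KIF21A (0.87) and CD302 (0.86).

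Other genes of the pathway also showed few differences by diet or drug. In the secretory route list 9 of 17 genes were positive for WD_S against HHD_S (median log2 difference 0.0027), 2 of 17 for HHD_S against HHD (median -0.13) and 5 of 17 for WD_S against HHD (median -0.12). In each, 0 passed an adjusted p of 0.05 and 0 an unadjusted p under 0.05 by edgeR. The smallest p of HHD_S against HHD in this list was that of TMEM41B, a lipid scramblase, at 0.29 (SE 0.142). SURF4 differed by -0.22 (SE 0.197), PREB, the exchange factor of the SAR1 proteins, by -0.27 (SE 0.214) and P4HB by -0.15 (SE 0.176) in the same comparison.

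Of the triglyceride list, 7 of 18 genes were positive for WD_S against HHD_S, 9 for HHD_S against HHD and 5 for WD_S against HHD, and 0 passed an adjusted p of 0.05 by edgeR in each. An unadjusted p under 0.05 was reached by LPIN3, a phosphatidate phosphatase, in the first of these and by PNPLA2, the adipose triglyceride lipase, in the others. PNPLA2 was higher by 0.47 for HHD_S against HHD (SE 0.213, edgeR adjusted p = 0.999) and by 0.59 for WD_S against HHD (SE 0.228, edgeR adjusted p = 0.9997). DGAT1, which completes triglyceride synthesis, stood at 322 ± 57.9 CPM in HHD and 345 ± 92.4 CPM in HHD_S, a log2 difference of 0.10 (SE 0.170).

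The remaining apolipoproteins and the genes that edit APOB mRNA numbered 8 measured of 15 listed, with 2, 3 and 2 positive in the 3 comparisons in the same order and 0 past an adjusted p of 0.05 by edgeR. APOD, an apolipoprotein of the lipocalin family made by many tissues, had the smallest p, with a log2 difference of 1.60 for WD_S against HHD_S (SE 0.365, edgeR adjusted p = 0.611) and 1.24 for WD_S against HHD (SE 0.389, edgeR adjusted p = 0.9997). APOBEC1, the deaminase that edits APOB mRNA to its short intestinal form, stood between 2.84 and 18.4 CPM and differed by -0.09 for WD_S against HHD_S (SE 0.317). APOA2, APOC4, APOF and APOH did not pass the filter, and APOC4 was at 0 in all 22 libraries.

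Among 28 regulators of apolipoprotein genes, 18, 14 and 18 were positive in the 3 comparisons and 0 passed an adjusted p of 0.05 by edgeR, with 2, 0 and 3 at an unadjusted p under 0.05. CDX2, an intestinal identity factor, had the smallest p of the list (0.46 for WD_S against HHD, SE 0.140, edgeR adjusted p = 0.9997). HNF4A, which drives many of the 9 genes in liver and gut, lay between 446 and 651 CPM and differed by 0.06 for WD_S against HHD_S (SE 0.106). CREB3L3, a membrane-bound factor that activates APOA4 and APOC2, differed by 0.03 (SE 0.157) and ranged from 417 to 1123 CPM over pigs. It had the highest r of the 28 regulators for 6 of the 9 genes: 0.81 with APOC3, 0.77 with APOA1, 0.74 with APOA4, 0.58 with MTTP, 0.58 with SAR1B and 0.54 with APOC2. Being picked as the highest, these values carry no test. HNF4A gave r from -0.21 with PLA2G12B to 0.58 with APOA4.

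Lipid exchange and clearance in blood was represented by 13 measured genes of 17 listed, of which 10, 4 and 8 were positive. In this list ABCG1 alone passed an adjusted p of 0.05, for WD_S against HHD (log2 difference 0.84, SE 0.135, edgeR adjusted p = 0.0410). SCARB1, the lipoprotein receptor of the brush border, ranged from 14.5 to 680 CPM over pigs, with r of 0.84 with APOC3, 0.82 with APOA1 and 0.80 with APOB, and of 0.21 with MTTP. It had the highest r of the 13 genes with APOC3, APOA1 and APOB, and being picked as the highest, these values carry no test. The median r of the 13 genes was -0.09 with APOC3, -0.17 with APOA1 and -0.20 with APOB. VLDLR was lowest for these genes, at -0.64, -0.62 and -0.58.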

How the data were processed

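Jejunal mucosa RNA of quality indicator above 8 was made into unstranded TruSeq version 2 libraries, per the labels' protocols. Each of the 22 deposited tables holds, per the file headers, the count of unique exon reads of every gene. How reads were mapped is not given in the sources used here. Multi-mapping reads are absent from unique counts. Groups follow each sample's diet label. Library pool (3 or 4) was read from the names of the deposited files, and what it marks is not given in the sources used here: pool 3 held 5 HHD, 5 HHD_S and 3 WD_S libraries and pool 4 the other 9. Gene symbols came from the files (17332) or a table of gene names (1050), and spans from RefSeq Sscrofa11.1 by symbol.

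Counts were filtered with filterByExpr (minimum count 10), scaled by TMM and fitted with edgeR 4.0.16 (R 4.3.3), quasi-likelihood with robust estimation, over all 3 groups with pool as an additive term (18 residual degrees of freedom, common coefficient of variation 25.9%). P values were adjusted by Benjamini-Hochberg over 13626 genes, and the script was tested on simulated data. Correlations used log2 CPM (prior count 2) centred within groups. Alternatives are in the closing section, with DESeq2 1.42.0 and limma 3.58.1. No 2 libraries agreed within sampling noise (smallest reduced chi-square 24.0 over 231 pairs). The 9 genes, the pathway and marker lists and the tests were chosen with earlier results of these data known. Genes named beside the 9 were, per list, up to 3 with the smallest p in any comparison, 8 set ones where measured, and the 3 most alike per gene, some of which are not reported here; CREB3L3 among regulators, SCARB1, ACSL3, SI, SEC24A, SEC24B, SEC13, SIK3, SIDT2, PCSK7, APOA5 and unmeasured genes were picked after their values were seen.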

Additional observations from a re-analysis of the deposited data

Results flagged for a closer look

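In HHD, 3 genes had a lowest library that lay unusually far below the next, and it was HHD 7 each time. APOA1 was 5714 CPM there against 13078 CPM in the next library. APOC3 was 290 CPM against 1105 CPM. APOC2 was 0 CPM against 0.682 CPM, from few reads. The distances were judged on the log2 scale (CPM, prior count 2), where the gap to the next library was 0.589 of the group's range for APOA1, 0.607 for APOC3 and 0.592 for APOC2, against a critical value of 0.568. On linear CPM the shares were 0.419, 0.349 and 0.211, under that value for all 3 genes. The result for APOC2 also depends on the value given to 0 reads: with 0 set at the floor of 3 counts its share was 0.495. These were 3 of 27 combinations of gene and group examined, and chance marks about 1 in 20 of them. HHD 7 also had an enterocyte score of -0.51 and a fibroblast score of -1.14, and the part of tissue makeup in these values was not tested. The 3 genes share a library and correlate with each other, so they are not independent observations.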

How the results depend on the processing

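Over 918 refits of the 9 genes' differences (34 settings), 0 passed an adjusted p of 0.05 (smallest 0.527), 6 had an unadjusted p under 0.05 (smallest 0.0312, edgeR or limma), and 68 changed sign. The share of all genes at that unadjusted level over these refits is not given here. The cause of each change was not tested.

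Counts of all genes past an adjusted p of 0.05 are 0 for WD_S against HHD_S, 0 for HHD_S against HHD, 1 for WD_S against HHD and 1 over the 3 groups. For WD_S against HHD_S the count became 2 without the pool term, 4 by DESeq2, and 1 each by limma, with summed Y-linked expression as a covariate in place of sex and without the 3 libraries of lowest enterocyte score (HHD_S 3, HHD_S 8 and HHD 5, chosen after seeing the data). DESeq2 gave 1 for HHD_S against HHD, 2 for WD_S against HHD and 3 over the 3 groups. Pool 3 alone, pool 4 alone and scaling by total counts gave 0 for WD_S against HHD and 0 over the 3 groups. Leaving out each library gave 0 to 2 for WD_S against HHD_S and 0 to 1 for WD_S against HHD and for the 3 groups.

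Signs turned as follows on the log2 scale. In pool 3 alone, WD_S against HHD_S gave APOB -0.074, APOA4 0.056 and TM6SF2 -0.020, HHD_S against HHD gave MTTP 0.17, APOC3 0.14 and SAR1B 0.15, and WD_S against HHD gave APOC2 0.35 and SAR1B 0.022. In pool 4 alone the same comparisons gave MTTP 0.24 and SAR1B 0.16, then APOB -0.081, APOA1 -0.13 and TM6SF2 -0.10, then APOC3 -0.17. With limma they gave APOB -0.19, APOC2 -0.35, PLA2G12B -0.076 and TM6SF2 -0.058, then APOC3 0.064 and SAR1B 0.072. With the enterocyte score as a covariate they gave APOB -0.10 and TM6SF2 -0.040, then APOB -0.025 and APOA1 -0.14, then APOB -0.13 and APOC3 -0.28. Without the 3 libraries of lowest enterocyte score they gave APOB -0.18 and TM6SF2 -0.074, then APOC3 0.29 and SAR1B 0.13, then APOC2 0.11. With only the 2 groups compared, SAR1B was 0.0066 for WD_S against HHD_S.

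Leaving out each library in turn, WD_S against HHD_S ranged from -0.030 to 0.29 for APOB, -0.24 to 0.091 for MTTP, -0.25 to 0.16 for APOA4, -0.33 to 0.58 for APOC2 and -0.14 to 0.073 for SAR1B. HHD_S against HHD ranged from -0.091 to 0.29 for APOB, -0.41 to 0.14 for MTTP, -0.10 to 0.19 for APOA1 and -0.11 to 0.071 for SAR1B. WD_S against HHD ranged from -0.40 to 0.085 for MTTP, -1.02 to 0.11 for APOC2 and -0.16 to 0.063 for SAR1B. No paired analysis was possible because the labels give groups no shared replicate numbers. Depth limits APOC2, at a median of 16.5 reads.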
